A study of Mus musculus with 9 samples.

Results

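Aneurysm of the mouse abdominal aorta, provoked with calcium phosphate (CaPO4), was compared with the same lesion in mice given naringenin. Of the 9 arrays in the series 6 entered the comparison, 3 labelled CaPO4 and 3 labelled naringenin, taken by their labels and by no measured value. The 3 arrays of control aorta, labelled wild type, received neither agent. They serve as background and as part of the estimate of the spread. The controls were scanned apart from the CaPO4 and naringenin arrays, so any difference from the controls cannot be told apart from scan. All samples were abdominal aorta of male mice, and the aneurysm is common to both groups compared. Strain, age, naringenin dose, route and time of sampling are not given in the sources used here. The design text says that aortas were mixed within each group, not whether an array is a pool, part of a pool or 1 animal, so p-values measure only the spread between these samples, which may be technical.

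An abdominal aortic aneurysm is a widening of the vessel in which smooth muscle and elastic matrix are lost and inflammatory cells enter the wall. Calcium salts applied to the outside of the mouse aorta are an established way to provoke one. Naringenin is a flavanone of citrus fruit, widely studied for effects on lipid metabolism, oxidative stress and inflammation.

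RNA freed of ribosomal RNA was labelled with Cy3 and hybridised to single-colour Agilent arrays of 59709 probes. Of these, 37494 passed a filter (signal clearly over background on 3 or more of the 9 arrays) and were tested. A level is a log2 intensity with the array's 75th percentile set to 0, and a change is naringenin minus CaPO4 on that scale. A probe was called where its limma p, adjusted by Benjamini-Hochberg over the 37494 probes, was under 0.05. The fit held all 9 arrays with a mean per group, so the spread among the controls entered each SE and p-value. Most probes (86.8%) carry a design number and no gene name. The named ones comprise 123 RefSeq probes (112 tested, for 108 genes), 5365 probes of lincRNA, long intergenic noncoding RNA (2546 tested), 962 of ultraconserved elements (314 tested) and 1290 of cDNA clones (647 tested). The fixed lists of smooth muscle, endothelial, matrix, protease, macrophage, lymphocyte, inflammation and oxidative stress genes had 0 named probes, so the tissue label could not be checked against them.

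The 6 arrays did not sort by label. CaPO4 1 and 3 correlated at r = 0.978 across 36923 probes, with 8.07% of probes more than 2-fold apart. For CaPO4 2 the correlation with them was 0.852 and 0.856, and 52.4% of probes were that far apart in either pairing. Its correlation with naringenin 1 and 2 was 0.957 and 0.962, with 14.9 and 15.6% of probes that far apart. Naringenin 3, alone in its scan, was the brightest (75th percentile 234.7 intensity units against 42.6 to 92.2), and 41.4% of its negative control spots were marked as above background, against 1.08 to 12.1% on the other 5 arrays. Results are therefore given with all arrays and without CaPO4 2, naringenin 3 or both. CaPO4 2 and naringenin 3 are called by their labels throughout. CaPO4 2 lay near naringenin on 73.3% of the 17346 probes on which the other arrays of the groups lay at least 1 log2 apart (naringenin 3 left out), and whether its label is right was not tested. These arrays were left out with their values known, so p-values without them describe the remaining arrays and are no independent test of the treatment.

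With all arrays 819 probes were called (2.18%), 303 higher (0.808%) and 516 lower (1.38%) in naringenin. The 112 RefSeq probes gave 3 calls (2.68%), for Jrkl, Mucl2 and Tbp, all lower. Limma called 0 of them higher, though 47 had an unadjusted p under 0.05 in that direction and 4 in the other. Their median change was 0.84, against 0.11 over all probes. That overall median moved with the scaling, to -0.08 with the array median, 0.16 with the percentile over detected probes, 0.08 with quantile normalization, -0.16 after normexp and 1.30 with no scaling. Of the calls, 37.0% were higher as reported, and 21.1, 55.2, 33.5, 56.4 and 98.3% in that order. Calls numbered 17035 (45.4%) without CaPO4 2, 174 (0.464%) without naringenin 3, 46 without CaPO4 1, 37 without CaPO4 3, 75 without naringenin 1 and 55 without naringenin 2. Without control 1, 2 or 3 there were 214, 203 and 255, and with only the CaPO4 and naringenin arrays 16. Among the CaPO4 arrays and naringenin 1 and 2, which share a scan, a fit of that scan alone with limma gave 0 calls, although the unadjusted p was under 0.05 for 4061 probes.

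Jrkl, a gene derived from a pogo-type transposase, fell most clearly. Its level was -0.03, 0.86 and 0.29 on CaPO4 1, 2 and 3, and -4.18, -4.18 and -3.92 on naringenin 1, 2 and 3, the order used throughout. Controls read 0.44 to 0.80, so every CaPO4 array lay near the controls and every naringenin array lay far below both. The change was -4.47 ± 0.33 (SE from limma, n = 3 arrays a group, adjusted p = 0.000946). Only naringenin 3 of its group was marked above background for this probe, so the difference is a bound. It is 9.50-fold with naringenin 3 at its own level and naringenin 1 and 2 at their lowest signal above background (-2.64 and -2.06). That mark is weak, since on naringenin 3 the 95th percentile of negative control spots was -1.09, above the Jrkl level there. On naringenin 1 and 2 this percentile was -1.55 and -1.52, also above the signals used, so against the negative controls the bound is smaller. Every CaPO4 level lay above these percentiles. Without CaPO4 2 and naringenin 3 the bound against the same lowest signals was 5.59-fold. In bulk tissue fewer cells of a type and less RNA per cell cannot be told apart, here and for each gene below. Leaving out any 1 array kept the call (adjusted p 2.32e-05 to 0.0136). In the shared scan alone the change was -4.55 (adjusted p = 0.311), and after normexp -1.56 (adjusted p = 0.0320).

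The sequence before the Jrkl start site is printed because this gene gave the clearest RefSeq difference. It is the known part of the 250 bases before the start in RefSeq's GRCm38.p6 table, minus strand, chr9:13245742-13245869, with 122 unknown bases cut. Here and below, capitals would mark TATAAA, the core letters of the TATA box, or its reverse TTTATA. These 128 bases hold no match, and 13.6% of all 32851 promoter windows (250 bases before to 50 after the start) hold one. A window was found for 81 of the 108 RefSeq genes tested.
Jrkl: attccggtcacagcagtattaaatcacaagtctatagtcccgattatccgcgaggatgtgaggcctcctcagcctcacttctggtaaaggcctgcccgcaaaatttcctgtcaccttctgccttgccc

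Ccdc82, a coiled-coil gene, neighbours Jrkl in the name table and was picked after its values were seen. It stood at 4.20, 5.51 and 4.33 in CaPO4 and 5.15, 5.15 and 4.35 in naringenin. The groups overlapped, with a change of 0.20 ± 0.41 (adjusted p = 0.771) for all arrays and 0.89 (adjusted p = 0.00252) without CaPO4 2 and naringenin 3.

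Tbp, the TATA-binding protein of the general transcription machinery, stood at 0.41, 0.19 and 0.43 in CaPO4 and -0.80, -0.98 and -1.54 in naringenin. Controls were at 0.84 to 0.87, so the order was control, CaPO4, naringenin, without overlap. Tbp fell by 1.45 ± 0.31 (n = 3, adjusted p = 0.0434), or 2.73-fold, and it was lower under every scaling tried, from -1.64 to -0.26. The call was lost with no scaling (adjusted p = 0.662), after normexp (-0.82, adjusted p = 0.127) and with the percentile over detected probes (adjusted p = 0.0595). It was also lost when any array but CaPO4 2 was left out (adjusted p 0.0807 to 0.172).

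Mucl2, a mucin-like gene, was at -0.99, -2.78 and -1.16 in CaPO4, -3.66, -4.26 and -4.35 in naringenin and -0.35 to 0.02 in controls. CaPO4 2 lay between its group and naringenin. The change was -2.44 ± 0.47 (adjusted p = 0.0336). No naringenin array was above background, and CaPO4 2 was not either. Against the lowest signal above background on the naringenin arrays (-2.64, -2.06 and -4.32) the bound is 2.57-fold. The 95th percentile of negative control spots there was higher, -1.55, -1.52 and -1.09, and CaPO4 1 and 3 read close to it, so that bound is weak. With no scaling the change was -1.25 (adjusted p = 0.0805), after normexp -0.96 (adjusted p = 0.181) and with the percentile over detected probes -2.40 (adjusted p = 0.0659), none of them a call. The call was also lost without any 1 array other than CaPO4 2 (adjusted p 0.0692 to 0.145), and without CaPO4 2 the change was -3.01 ± 0.28 (adjusted p = 0.000134).

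**Figure D1:**
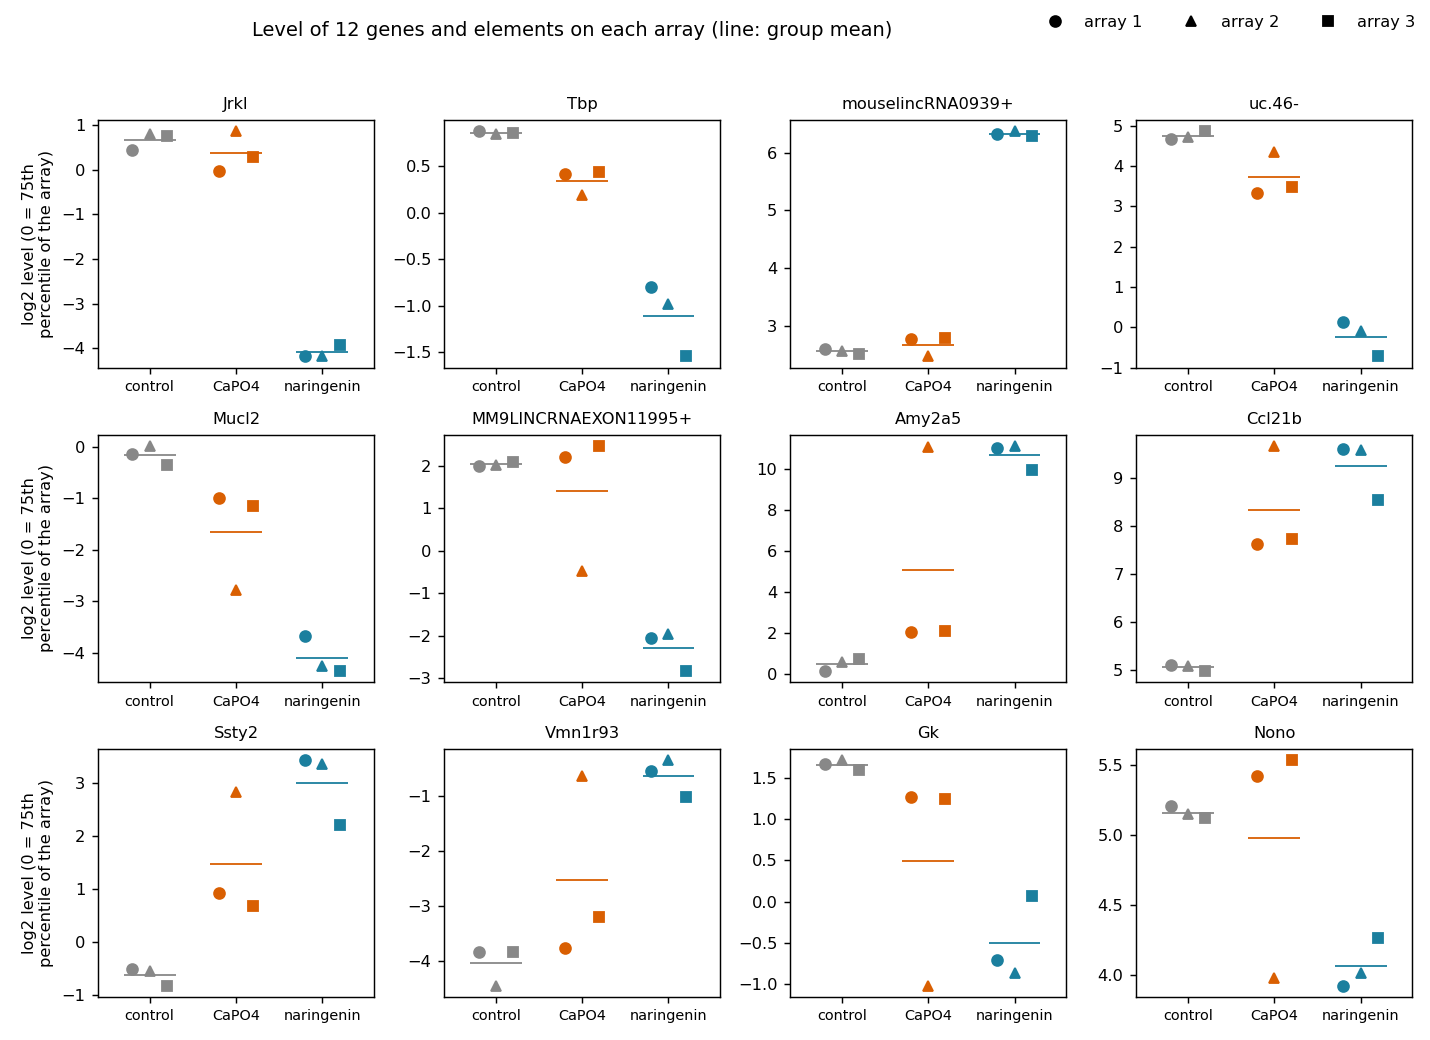
Log2 level (0 is the 75th percentile of the array) of 12 genes and elements on the 9 arrays, by group. Each point is 1 array, its shape gives the array number, and the line is the group mean. In the top row CaPO4 2 (triangle) lies with CaPO4 1 and 3, whereas for Amy2a5, Ccl21b, Ssty2, Vmn1r93, Gk and Nono it lies with naringenin.

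For most genes the result turned on CaPO4 2. Its position was computed as its distance from the mean of CaPO4 1 and 3 over the distance from that mean to the mean of naringenin 1 and 2, where these means were at least 1 log2 apart. A position of 0 is that of the other CaPO4 arrays, 1 that of naringenin. Of 84 such RefSeq probes CaPO4 2 was past 0.75 on 69 (82.1%), between on 13 and under 0.25 on 2, Jrkl and Tbp. Over all 17346 such probes the shares were 73.3, 19.9 and 6.79%. The median position of naringenin 3 on the RefSeq probes was 0.66. With the percentile over detected probes as scale, 32 probes in place of 69 were past 0.75.

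**Figure D2:**
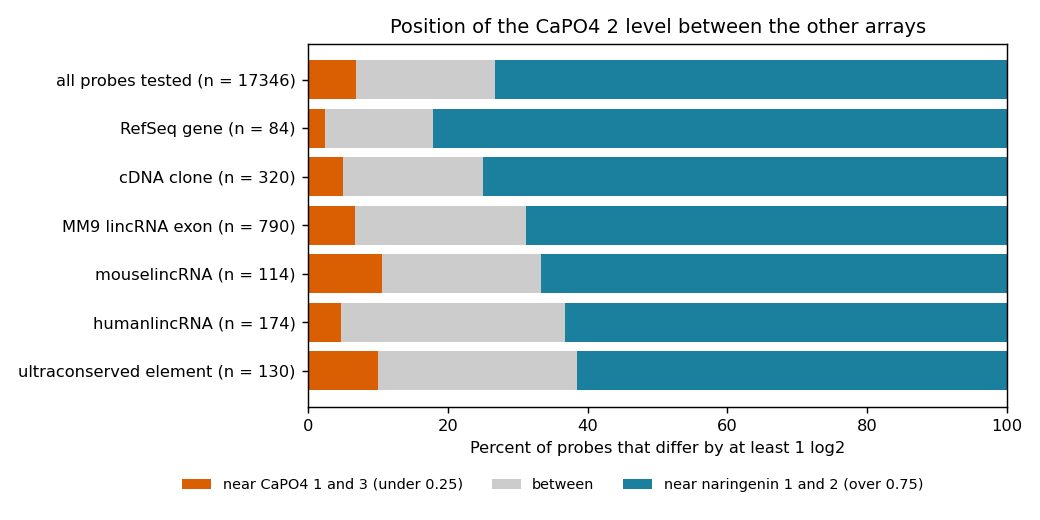
Percent of probes whose CaPO4 2 level lay near CaPO4 1 and 3, between, or near naringenin 1 and 2, by class of probe, for probes on which those pairs differ by at least 1 log2. The number of probes stands beside each class. Among the classes drawn, the share near naringenin ran from 61.5% of ultraconserved elements to 82.1% of RefSeq probes.

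Without CaPO4 2, 84 of the 112 RefSeq probes (75%) were called, 71 higher and 13 lower, against 45.4% of all probes, 25.3% higher and 20.1% lower. Without both arrays 96 were called (85.7%), 82 higher and 14 lower, against 58.0% of all probes, 34.0% higher and 24.1% lower. Without naringenin 3 alone only Jrkl was called. The median RefSeq change was 1.45 without CaPO4 2 and 1.74 without both, and over all probes 0.20 and 0.22. Without both arrays 93 of the 112 probes kept their sign under every scaling tried, 82 higher and 11 lower.

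**Figure D3:**
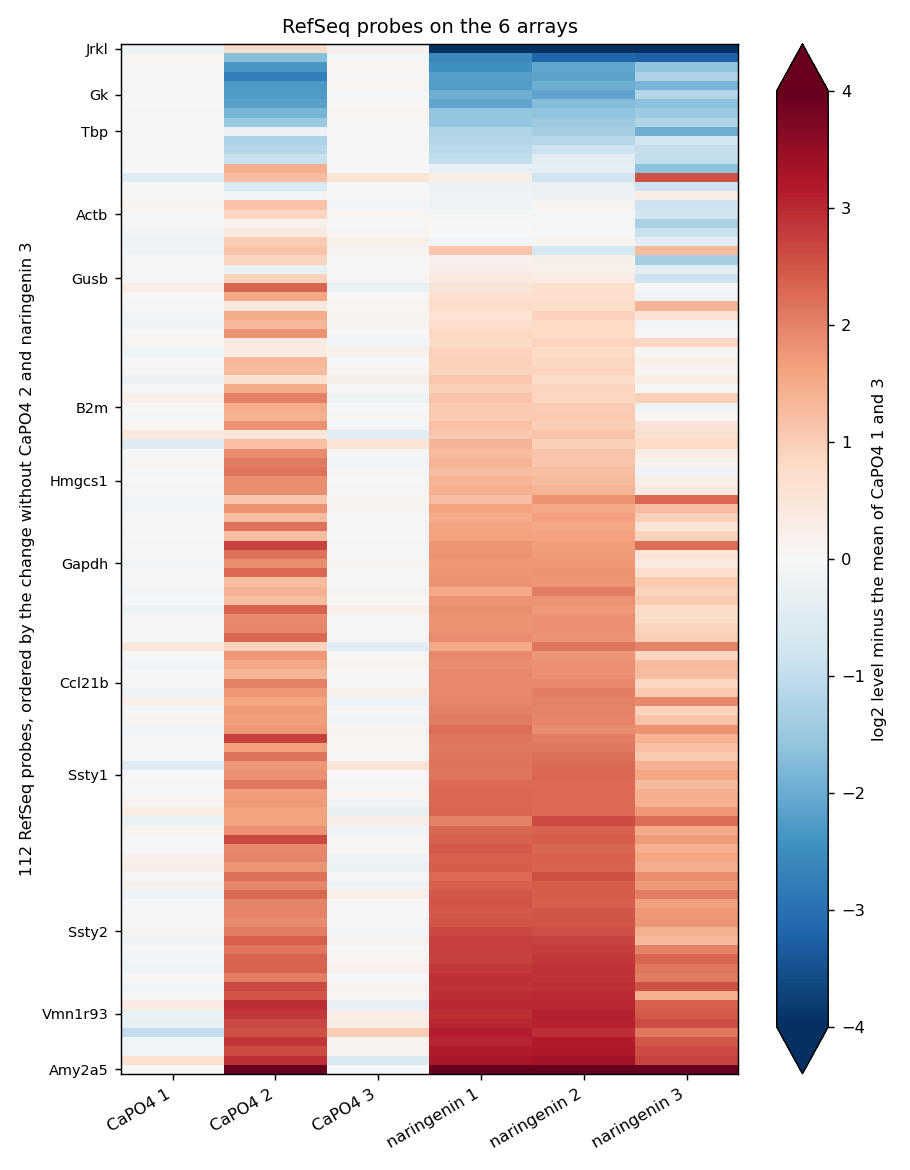
Level of the 112 RefSeq probes on the 6 arrays minus the mean of CaPO4 1 and 3 (log2, red higher, blue lower, colours end at 4 either way), ordered by the change without CaPO4 2 and naringenin 3. The CaPO4 2 column resembles the naringenin columns for most probes, and Jrkl at the top is an exception.

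Amy2a5, a pancreatic amylase that digests starch, differed most among RefSeq probes without CaPO4 2. It stood at 2.07, 11.08 and 2.08 in CaPO4, 11.03, 11.15 and 9.96 in naringenin and 0.14 to 0.74 in controls. CaPO4 2 lay inside the naringenin range and far from its own group. The change was 5.64 ± 1.93 (adjusted p = 0.120) with all arrays and 9.02 ± 0.21 (adjusted p = 2.20e-05, 518-fold) without both. It was the only named gene of 11 on the pancreatic acinar list, so the list's summed level cannot be given. The arrays high in Amy2a5 are the ones that lie together for most genes below. A fit with the Amy2a5 level as covariate called 1104 probes. Amy2a5 was low only on CaPO4 1 and 3 of the 6 arrays, so its level and the treatment cannot be cleanly told apart. Of 68 named results in that fit 60 stayed on their side of the threshold and 8 lost the call. Only the 3 RefSeq genes and 18 other named probes called with all arrays had a call to lose. Jrkl kept it (-4.91, adjusted p = 0.000832), while Tbp (-1.35, adjusted p = 0.0630) and Mucl2 (-1.42, adjusted p = 0.0716) lost it, as did the noncoding and clone probes mouselincRNA0188-, MM9LINCRNAEXON11995+, mouselincRNA0214+, uc.239+, uc.346+ and BB649909.

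The Amy2a5 promoter is printed as that of the gene with the widest range. It lies on the minus strand at chr3:113258700-113258949 (GRCm38.p6, RefSeq), and its TATAAA, in capitals, begins at position -30 from the start site.
Amy2a5: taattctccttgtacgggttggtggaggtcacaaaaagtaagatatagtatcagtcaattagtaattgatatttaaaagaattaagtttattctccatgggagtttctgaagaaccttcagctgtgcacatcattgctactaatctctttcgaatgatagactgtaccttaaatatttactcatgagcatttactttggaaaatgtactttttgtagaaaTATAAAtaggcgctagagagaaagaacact

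Ccl21 is a chemokine that draws lymphocytes and dendritic cells into lymphoid tissue, and the mouse carries near-identical copies that a probe may not separate. Ccl21b stood at 7.62, 9.68 and 7.74 in CaPO4, 9.61, 9.60 and 8.54 in naringenin and 4.97 to 5.09 in controls. Thus CaPO4 2 and naringenin 1 and 2 lay together and all 6 arrays exceeded the controls. The change was 0.91 ± 0.55 (adjusted p = 0.304) with all arrays and 1.93 ± 0.11 (adjusted p = 7.20e-05, 3.80-fold) without both. Ccl21c and the copy Gm13304 read nearly the same on each of the 6 arrays. All 3 were called higher without CaPO4 2, as were 25.3% of all probes. With all arrays limma called 0 of 3, with 0 at an unadjusted p under 0.05.

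Tagap, a GTPase-activating protein of activated T cells, was picked after its values were seen. It was at 1.61, 4.40 and 1.76 in CaPO4, 3.81, 3.71 and 3.06 in naringenin and 1.80 to 1.96 in controls. CaPO4 2 exceeded every naringenin array. The change was 0.94 ± 0.65 (adjusted p = 0.367) with all arrays and 2.08 (adjusted p = 7.47e-05) without both.

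Hmgcs1, an enzyme of cholesterol synthesis and the only named gene of 10 on the lipid list, was at 4.94, 6.83 and 4.99 in CaPO4, 6.33, 6.23 and 5.23 in naringenin and 6.25 to 6.45 in controls. Naringenin 1 and 2 lay next to the controls and naringenin 3 near CaPO4 1 and 3. The change was 0.34 ± 0.52 (adjusted p = 0.693) with all arrays, 0.96 ± 0.34 (adjusted p = 0.0479) without CaPO4 2 and 1.32 (adjusted p = 0.000290) without both. Gk, glycerol kinase, was at 1.26, -1.02 and 1.24 in CaPO4, -0.70, -0.86 and 0.07 in naringenin and 1.60 to 1.71 in controls. CaPO4 2 was the lowest of the 6, and the change was -0.99 ± 0.58 (adjusted p = 0.285) with all arrays and -2.04 (adjusted p = 6.64e-05) without both. G6pd2, a retrocopy of the glucose-6-phosphate dehydrogenase gene, was at 1.62, -0.17 and 1.77 in CaPO4 and 0.14, 0.09 and 0.25 in naringenin. Its change was -0.91 (adjusted p = 0.242) and, without both, -1.58 (adjusted p = 0.000178). With no scaling the all-array changes of Gk and G6pd2 were positive, while those without both arrays stayed negative.

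Nono, an RNA-binding protein of nuclear paraspeckles, was at 5.42, 3.98 and 5.53 in CaPO4, 3.92, 4.01 and 4.26 in naringenin and 5.12 to 5.21 in controls. CaPO4 2 fell in the naringenin range. The change was -0.91 ± 0.42 (adjusted p = 0.193) with all arrays and -1.51 (adjusted p = 0.000128) without both. E330014E10Rik changed by -1.92 (adjusted p = 0.0115) and Nlrp4g, of a family known from the egg cell, by -1.15 (adjusted p = 0.000344) without both, and for each CaPO4 2 lay below every naringenin array. With no scaling the all-array changes of these 3 genes were positive. The 2 probes of Gm3286 were at 2.22, -0.03 and 2.36 and 2.42, 0.19 and 2.58 in CaPO4 and -0.15, 0.21 and 0.69 and 0.27, 0.55 and 0.63 in naringenin. CaPO4 2 again lay with naringenin, and the changes were -1.26 and -1.25 (adjusted p = 0.192 and 0.205) with all arrays and -2.26 and -2.09 (adjusted p = 0.000145 and 0.00381) without both. NM_011667, a probe with no symbol in the name table and outside the rule, changed by -2.16 (adjusted p = 6.61e-05) without both.

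Genes of the Y chromosome formed the largest family, 22 probes for 22 genes, among them Sly, Ssty1 and Ssty2, known for activity in spermatids. The family's median level was 0.43, 2.36 and 0.33 in CaPO4, 2.73, 2.81 and 2.04 in naringenin and -0.70 to -0.56 in controls. All 6 arrays were above the controls, and CaPO4 2 lay among the naringenin arrays. Limma called 0 of 22 with all arrays (19 had an unadjusted p under 0.05, all higher, and the lowest adjusted p was 0.0782). Without CaPO4 2 there were 20 higher and 1 lower, with a median change of 2.13, and without both arrays again 20 and 1, with a median of 2.39. Over all probes 25.3% were higher and 20.1% lower in the first of these fits and 34.0 and 24.1% in the second. The all-array median was positive under every scaling tried.

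Ssty2 was at 0.92, 2.84 and 0.69 in CaPO4 and 3.43, 3.37 and 2.22 in naringenin, and Ssty1 at 0.52, 2.36 and 0.54 and 2.68, 2.83 and 2.10. For both, CaPO4 2 exceeded naringenin 3. Sly was at -1.14, 1.48 and -1.78 in CaPO4 and 1.54, 1.57 and 0.92 in naringenin, and without both arrays it differed by 3.01 (adjusted p = 0.000257), at least 6.58-fold. Gm20815 and Gm20736 differed by 3.05 and 2.92 without both (adjusted p = 0.000706 and 7.39e-05), at least 5.94-fold and at least 1.51-fold. Gm20738 went the other way, 3.47, 2.55 and 3.44 in CaPO4 against 2.47, 3.01 and 2.48 in naringenin, by -0.71 (adjusted p = 0.0453) without both, and turned positive with no scaling. Gm20823 was called in none of these fits.

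The Y-linked probes may not be separate measurements. Promoter windows were found for 19 of the 22 genes, and 9 of their 171 pairs matched at over 90% of bases. Those of Gm20816 and Gm20867 were identical, and their probes read alike, 0.34, 2.31 and 0.31 and 0.33, 2.36 and 0.39 in CaPO4 and 2.77, 2.80 and 2.06 and 2.86, 2.77 and 1.99 in naringenin. The bases before the start that they share are printed from the Gm20816 copy, chrY:68537705-68537954, plus strand (GRCm38.p6, RefSeq), to show how far such copies agree.
Gm20816 and Gm20867: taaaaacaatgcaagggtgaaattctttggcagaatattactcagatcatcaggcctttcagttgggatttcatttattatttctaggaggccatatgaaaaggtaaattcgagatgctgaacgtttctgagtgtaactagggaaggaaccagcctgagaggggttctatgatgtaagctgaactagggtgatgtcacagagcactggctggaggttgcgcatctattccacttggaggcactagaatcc

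Vomeronasal type 1 receptors sense pheromones in the nose. The 11 probes include Gm10665, whose promoter window is 97.0% identical to that of Vmn1r93. Their median level was -0.86, 0.71 and -0.89 in CaPO4, 1.11, 1.08 and 0.52 in naringenin and -1.54 to -1.10 in controls. CaPO4 2 again lay among the naringenin arrays. Limma called 0 of 11 with all arrays (10 had an unadjusted p under 0.05, all higher), and 10 rose both without CaPO4 2 and without both arrays, against 25.3 and 34.0% of all probes. Of these, Vmn1r187 turned negative after normexp without CaPO4 2. Vmn1r62 was not called, at 1.16 (adjusted p = 0.0600). Vmn1r93 was at -3.76, -0.64 and -3.20 in CaPO4 and -0.54, -0.36 and -1.02 in naringenin, and differed by 3.03 without both (adjusted p = 0.000387), at least 1.81-fold. For Vmn1r243 the change was 2.77 (adjusted p = 0.000268), at least 4.35-fold.

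Of these receptors 10 had a promoter window, and 8 of 45 pairs matched at over 90% of bases. Vmn1r111 and Vmn1r257 matched fully, and their probes read -0.50, 0.74 and -0.48 and -0.58, 0.71 and -0.49 in CaPO4 and 1.31, 1.31 and 0.57 and 1.26, 1.25 and 0.52 in naringenin. The shared bases are printed from the Vmn1r111 copy, chr7:20703217-20703466, minus strand (GRCm38.p6, RefSeq), because such probes may report copies of 1 sequence.
Vmn1r111 and Vmn1r257: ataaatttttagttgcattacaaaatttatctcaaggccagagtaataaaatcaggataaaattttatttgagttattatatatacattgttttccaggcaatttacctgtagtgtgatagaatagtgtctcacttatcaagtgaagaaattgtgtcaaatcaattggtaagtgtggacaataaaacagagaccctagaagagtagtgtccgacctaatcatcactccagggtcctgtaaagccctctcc

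Pramel genes belong to a family active in germ cells and the early embryo. Pramel37 was at -3.76, -0.23 and -1.82 in CaPO4 and 0.35, 0.17 and -0.67 in naringenin, and changed by 3.05 (adjusted p = 0.00996, at least 2.96-fold) without both arrays. Pramel39 changed by 2.86 (adjusted p = 0.00770, at least 4.25-fold). The X-linked genes Gm10487 and Gm10488 differed by 3.19 and 3.29 (adjusted p = 6.92e-05 and 0.00104), at least 1.82-fold and at least 3.38-fold. None of these 4 was called with all arrays (adjusted p 0.0969 to 0.150). Of 4 histone H2A genes 3 were called higher without both arrays, against 34.0% of all probes. H2ac19 changed by 0.21 (adjusted p = 0.133) there, a sign that turned with quantile normalization and with the percentile over detected probes.

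Genes often used as references were among those called. Of 9 with a named probe, 1 (Tbp, lower) was called with all arrays. Without CaPO4 2 there were 3 higher (Gapdh, Hprt and Tfrc) and 1 lower, and without both 7 higher and 1 lower. Of all probes 2.18, 45.4 and 58.0% were called in these fits. The count without CaPO4 2 is thus near the share of all probes. Gapdh, of glycolysis, was at 7.77, 9.74 and 7.97 in CaPO4 and 9.61, 9.61 and 8.26 in naringenin. Its change was 0.67 ± 0.55 (adjusted p = 0.453) with all arrays and 1.74 (adjusted p = 0.000110) without both. Tfrc, the transferrin receptor for iron uptake, was at 2.99, 5.31 and 3.06 in CaPO4 and 4.90, 4.82 and 4.01 in naringenin and changed by 1.83 (adjusted p = 0.000108) without both.

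Actb, cytoplasmic actin, was at 7.29, 8.21 and 7.43 in CaPO4 and 7.33, 7.29 and 6.60 in naringenin. It was not called without both arrays (-0.05, adjusted p = 0.710), and that sign turned with no scaling and after normexp. B2m, Hprt, Ppia and Rpl13a differed by 1.02, 1.20, 0.91 and 1.23 without both (adjusted p 0.000259 to 0.000695), higher under every scaling tried. For each of them CaPO4 2 was the highest of the 6 arrays. Gusb, a lysosomal enzyme, was at -0.35 (adjusted p = 0.603) with all arrays and 0.35 (adjusted p = 0.0324) without both, and the latter turned negative under quantile normalization.

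A stretch of chromosome 1 from Disp1 to Hhipl2, picked after its values were seen, holds 7 protein-coding genes in the name table, of which 6 were tested. Disp1, which releases Hedgehog ligands, was at 0.66, 3.35 and 0.77 in CaPO4 and 3.08, 3.12 and 2.41 in naringenin and changed by 2.38 (adjusted p = 9.61e-05) without both arrays. Brox, Taf1a and Hhipl2 changed by 1.74, 1.77 and 1.56 (adjusted p = 9.51e-05, 7.01e-05 and 0.000735), Hhipl2 above background on 1 CaPO4 and 2 naringenin arrays and negative after normexp. Aida and Mia3 changed by -0.05 and -0.28 (adjusted p = 0.880 and 0.635), with signs that turned under some scalings. With all arrays limma called 0 of the 6 (lowest adjusted p 0.222; 0 had an unadjusted p under 0.05).

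Among lincRNA probes 47 of 2546 were called with all arrays (1.85%), 19 higher and 28 lower, against 1061 (41.7%) without CaPO4 2 and 1276 (50.1%) without both. The shares of all probes called in these fits were somewhat larger, 2.18, 45.4 and 58.0%. The largest rise of those called with all arrays was on mouselincRNA0939+, at 2.76, 2.46 and 2.77 in CaPO4, 6.33, 6.37 and 6.29 in naringenin and 2.50 to 2.60 in controls. CaPO4 2 lay with its own group and with the controls. The change was 3.67 ± 0.28 (n = 3, adjusted p = 0.000946), 12.7-fold, on a probe above background on all 9 arrays. The call held under every scaling and without any 1 array, and in the shared scan alone the change was 3.69 (adjusted p = 0.311).

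MM9LINCRNAEXON11268+ was at -1.50, 0.42 and -1.35 in CaPO4 and 3.03, 2.78 and 1.99 in naringenin, a change of 3.41 ± 0.51 (adjusted p = 0.0158), at least 10.1-fold. MM9LINCRNAEXON11995+ was at 2.21, -0.47 and 2.48 and -2.05, -1.97 and -2.83, a change of -3.69 ± 0.67 (adjusted p = 0.0285). In these probes CaPO4 2 lay partway and the groups did not overlap. The probes humanlincRNA0152-, mouselincRNA0214+ and MM9LINCRNAEXON10277+ changed by -3.12, -2.96 and -2.82 (adjusted p = 0.0264, 0.0343 and 0.0319). At most 1 naringenin array was above background for these. Against the lowest signals above background the bounds are 3.52-fold, 2.94-fold and 2.53-fold. The 95th percentile of negative control spots on the naringenin arrays was higher, -1.55, -1.52 and -1.09, so against it these bounds would be smaller. The lowest CaPO4 level of each probe, -2.45, -2.54 and -2.99, lay below that percentile. MM9LINCRNAEXON10218- and mouselincRNA0188- rose by 2.66 and 2.54 (adjusted p = 0.0231 and 0.0321), from a CaPO4 group above background on at most 1 array, so that the bounds are at least 1.62-fold and at least 2.13-fold. For mouselincRNA0188- only CaPO4 2 and the naringenin arrays were above background, so it passed the filter mainly through the group in which it was high. For MM9LINCRNAEXON10218- no bound was left without both arrays. It read -1.97 on naringenin 1, where the 95th percentile of negative control spots was -1.55. With the Amy2a5 level as covariate MM9LINCRNAEXON11995+ changed by -2.03 (adjusted p = 0.0551).

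Wider lincRNA differences were called without CaPO4 2 but not with all arrays. MM9LINCRNAEXON11249+ was at 4.74, -2.76 and 4.54 in CaPO4, -3.74, -2.95 and -1.37 in naringenin and 3.73 to 3.87 in controls. CaPO4 2 lay among the naringenin arrays. The change was -4.86 ± 1.64 (adjusted p = 0.117) with all arrays and -7.98 (adjusted p = 3.04e-05) without both, at least 127-fold. MM9LINCRNAEXON11238-, humanlincRNA0626- and mouselincRNA0712- changed by -5.62, -5.38 and -5.04 without both (adjusted p 3.00e-05 to 0.000192), against adjusted p of 0.0994 to 0.169 with all arrays. MM9LINCRNAEXON11355- and MM9LINCRNAEXON10272- rose by 3.65 and 3.61 without both, at least 6.55-fold and at least 4.05-fold. The folds of the other 3 are at least 10.7-fold, at least 10.1-fold and 33.0-fold.

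Ultraconserved elements are stretches of genome kept nearly identical among mammals. Of their 314 probes 13 were called with all arrays (4.14%, against 2.18% of all probes), 4 higher and 9 lower. Without CaPO4 2 the share was 40.1%, against 45.4% of all probes. On uc.46- the level was 3.34, 4.35 and 3.48 in CaPO4, 0.12, -0.09 and -0.72 in naringenin and 4.66 to 4.86 in controls. CaPO4 2 lay on the control side of its group, away from naringenin. The change was -3.95 ± 0.37 (n = 3, adjusted p = 0.00240), 15.5-fold, and -3.71 in the shared scan alone (adjusted p = 0.360). With no scaling its adjusted p was 0.0523. On uc.193- the change was -3.11 (adjusted p = 0.0158) and on uc.346+ -2.57 (adjusted p = 0.0400). Against the lowest signals above background the bounds are 5.95-fold and 3.06-fold. Against the 95th percentile of negative control spots on the naringenin arrays (-1.55, -1.52 and -1.09) both would be smaller. In CaPO4 uc.346+ read -0.70, -1.55 and -1.01, close to that percentile. The probes uc.239+, uc.236+ and uc.276- rose by 3.29, 2.06 and 1.78 (adjusted p = 0.0420, 0.0187 and 0.0239). No CaPO4 array was above background for these, so the bounds are at least 4.25-fold, at least 1.27-fold and at least 1.08-fold. On uc.239+ and uc.276- only the naringenin arrays were above background. Both passed the filter through the group in which they were high, so their tests are no independent evidence of a rise. The naringenin levels of uc.239+ were -0.77, -0.50 and 2.21, by far the highest on naringenin 3. Its bound without both arrays was at least 1.59-fold, and its call was kept in 2 of the 9 fits that left out 1 array. For uc.236+ and uc.276- no bound was left without both arrays. Their naringenin levels were -1.34, -1.84 and -1.09, and -1.50, -1.55 and -1.96. On those arrays the 95th percentile of negative control spots was -1.55, -1.52 and -1.09, so both probes read close to it or below. Without both arrays uc.77+ changed by -4.37 (adjusted p = 0.000249) and uc.443- by 2.71 (adjusted p = 0.000128), with CaPO4 2 towards naringenin on both.

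Of 647 cDNA clone probes 6 were called with all arrays (0.927%, against 2.18% of all probes), 1 higher and 5 lower. AV310809 was at 4.55, 5.51 and 4.56 in CaPO4, 1.96, 1.96 and 1.76 in naringenin and 4.90 to 5.35 in controls. CaPO4 2 was the farthest from naringenin. The change was -2.98 ± 0.35 (n = 3, adjusted p = 0.00748), 7.89-fold. BB649909 and AK201409 changed by -2.70 and -2.57 (adjusted p = 0.0290 and 0.0268), and AA821979 rose by 2.96 (adjusted p = 0.0187, at least 1.75-fold). AA821979 was above background on the naringenin arrays only, and so passed the filter through the group in which it was high. No bound was left for it without both arrays. Of the 18 lincRNA, ultraconserved and cDNA probes named here and called with all arrays, 3 kept the call without each array in turn, namely mouselincRNA0939+, uc.46- and AV310809.

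BC156060 was at 0.83, 6.09 and 0.83 in CaPO4, 5.98, 5.90 and 5.38 in naringenin and -4.58 to -4.44 in controls, on none of which it was above background. CaPO4 2 was the highest of the 6. The change was 3.17 ± 1.14 (adjusted p = 0.130) with all arrays and 5.11 (adjusted p = 1.39e-05, 34.5-fold) without both. BU961149 went the other way, at 7.12, 2.62 and 6.94 in CaPO4 and 2.53, 2.65 and 2.83 in naringenin, a change of -2.89 (adjusted p = 0.116) and, without both, -4.44 (adjusted p = 2.76e-05).

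**Figure D4:**
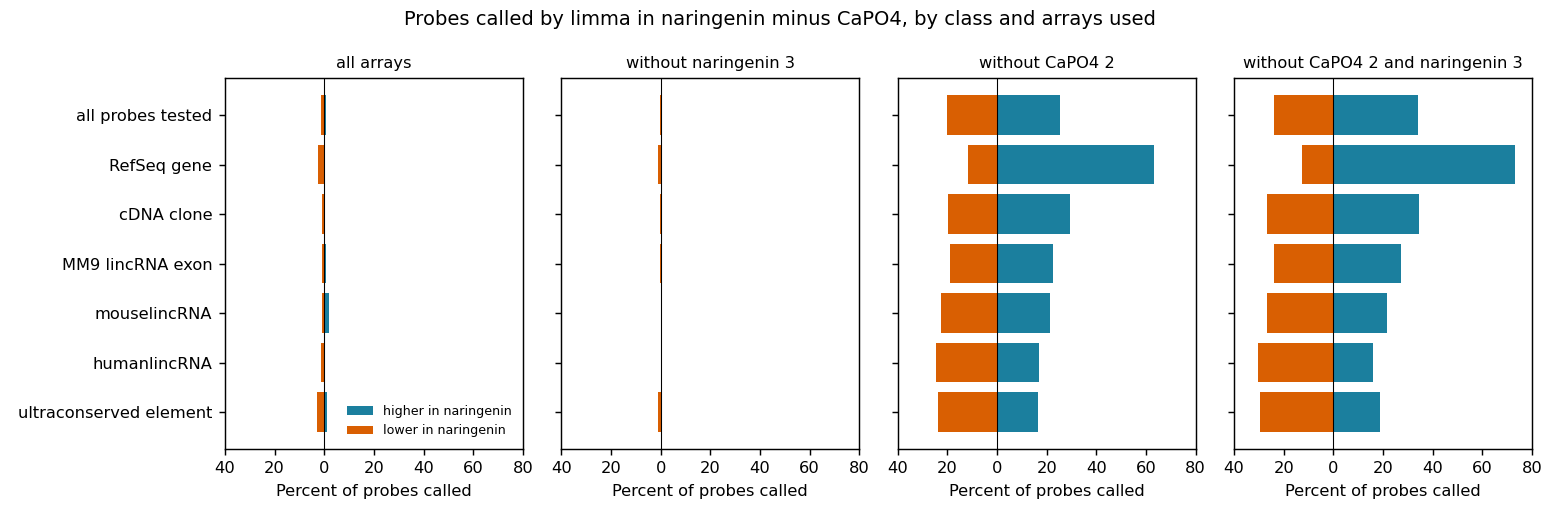
Percent of tested probes called by limma (adjusted p under 0.05), by class of probe, with the arrays used named above each panel. Bars to the right are probes higher in naringenin, bars to the left probes lower. Of the RefSeq probes 2.68% were called with all arrays and 75% without CaPO4 2, and of all tested probes 2.18 and 45.4%.

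All 819 probes called with all arrays were also called without CaPO4 2 and without both arrays. These fits share arrays and called 45.4 and 58.0% of all probes, so the overlap is no independent support. Leaving out any other single array gave 37 to 255 calls. With all arrays the 2 groups did not overlap on 14 RefSeq probes, 10 higher and 4 lower, against 24.2% of all probes, 12.5% higher and 11.8% lower. The 10 higher ones included Dhrsx (1.94, adjusted p = 0.0841) and H2ac23 (1.58, adjusted p = 0.0706), picked after their values were seen, and limma called 0 of the 10, of which 10 had an unadjusted p under 0.05.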

How the data were processed

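Aorta RNA was measured on 9 single-colour arrays, 3 each of control, CaPO4 and naringenin. The authors deposited a table of signal intensity that equals the processed signal of the deposited scanner files within 0.0998%. Per the submitters' processing notes Agilent Feature Extraction 11.0.1.1 made those files, and per the file headers the design uses mm9, whose coordinates were not used. Control and outlier spots were dropped, repeated spots averaged in log2, and the 75th percentile of each array subtracted. Probes above background on at least 3 of 9 arrays (repeated probes on at least 50% of spots) were tested with limma 3.58.1 in R 4.3.3, with a mean per group over all arrays, and the script was tested on simulated data. RefSeq accessions were named through a GRCm38.p6 table (116 of 123 matched). Members and lists were chosen with earlier results of these data known. The rule named genes called with all arrays, the 10 genes with a symbol that rose and fell most without CaPO4 2 among those called without overlap, list members, and the largest lincRNA, ultraconserved and cDNA changes. Same-numbered arrays' deviations correlated at -0.17, 0.22 and 0.24, so numbers were not taken to pair them. Scaling, background correction, filters, array weights, scan and single arrays were varied. Figures used matplotlib 3.10.9. The number of arrays limits the precision.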

Additional observations from a re-analysis of the deposited data

Results flagged for a closer look

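Control spots, which no comparison used, stood apart on naringenin 3. Of its 1200 negative control spots 41.4% were marked well above background, against 1.08 to 12.1% on the other CaPO4 and naringenin arrays and 8.92 to 14.6% on the controls. Of its 420 ERCC spots (synthetic RNA controls) 47.6% were so marked, against 10.2 to 18.1% on the other 8 arrays. The cause was not tested.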

How the results depend on the processing

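Against 819 probes called in the comparison as reported, 1421 were called with median scaling, 294 with no scaling, 1482 with quantile normalization, 227 after normexp, 386 with probes above background on all arrays, 415 with no filter, 16 with only the naringenin and CaPO4 arrays, 26675 with array weights, 174 with scan as a block, 0 in the shared scan alone (4061 at an unadjusted p under 0.05) and 21752 with CaPO4 2 and naringenin 3 left out. The scan block could only set naringenin 3 apart, because the controls' scan coincides with their group. It thus repeats the fit without naringenin 3, with the same 174 calls, and is no separate check. Leaving out each array in turn gave 37 to 17035 probes, 1 to 82 RefSeq genes, 1 to 1061 lincRNA probes, 1 to 126 ultraconserved probes and 1 to 317 cDNA probes. RefSeq genes called, 3 as reported, were 1 with no scaling, normexp, the stricter filter, no filter, the 6 arrays alone or the scan block, 0 in the shared scan, 96 with array weights and 94 without both arrays. LincRNA calls, 47 as reported, were 74 (median), 23 (percentile over detected probes), 15 (no scaling), 77 (quantile), 9 (normexp), 13 (above background on all arrays), 23 (no filter), 1 (the 6 arrays), 1689 (weights), 6 (scan block), 0 (shared scan) and 1276 (without both). Ultraconserved calls, 13 as reported, were in that order without the median and quantile settings 7, 2, 3, 3, 7, 1, 212, 5, 0 and 152. The cDNA calls, 6 as reported, were 14 (median), 3 (percentile over detected probes), 1 (no scaling), 17 (quantile), 2 (normexp), 3 (above background on all arrays), 0 (the 6 arrays), 482 (weights), 2 (scan block), 0 (shared scan), 17 (Amy2a5 level as covariate) and 397 (without both). RefSeq probes with CaPO4 2 near naringenin were 32 in place of 69 with the percentile over detected probes. Gusb reversed without both arrays, to 0.35 from -0.35. With the replicate number as a block, which pairs arrays by number only, 414 probes, 2 RefSeq genes, 20 lincRNA and 6 ultraconserved probes were called. The causes of these shifts were not tested.

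Few named probes, 3 arrays a group and 2 arrays that lie apart limit each count, and a probe near background has only a bound. For falls that bound rests on signals under the 95th percentile of negative control spots on the naringenin arrays, and would be smaller against it. Jrkl and mouselincRNA0939+ kept their direction in every setting that tested them and lost the call in the shared scan alone. The direction of uc.46- and AV310809 was kept too, with the call lost in the shared scan alone and with no scaling, and for AV310809 also with only the 6 arrays. The filter for signal above background on all arrays left Jrkl and Mucl2 without a value.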
